A study of Mus musculus with 384 samples.

Results

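Cd34-positive cells of the mouse hair follicle were taken from single-cell transcriptomes of back skin. They are the cells labelled Sca-1 (neg) that held at least 1000 genes at 1 TPM or more and in which Cd34 stood at 10 TPM or more, where TPM (a unit scaled to the same total in every cell) is the share of a gene among all transcripts of a cell. They numbered 91 of the 337 kept Sca-1-negative cells, and of 384 cells in the series. The members were thus chosen by their measured Cd34 values, and differences between these cells and the remaining 246 Sca-1-negative cells are descriptions. Cd34 itself is not a finding.

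All mice carried Sox9-CreER, a tamoxifen-inducible recombinase driven from a gene of hair follicle stem cells, together with R26-YFPfl/fl, a reporter that marks cells in which the recombinase acted. In the group labelled cKO these were combined with NFIBfl/+ and NFIXfl/fl, and in the group labelled dKO with NFIBfl/fl and NFIXfl/fl. Both groups therefore carried 2 floxed Nfix alleles, and they differed in whether 1 or both Nfib alleles were floxed. No group had unfloxed Nfix alleles. Nfib and Nfix encode nuclear factor I (NFI) transcription factors. All cells came from skin at postnatal day 70 and had been sorted for YFP and integrin α6, with dead cells removed by DAPI. Sca-1, the product of Ly6a, marks the upper follicle and the epidermis. No label ties a cell to an animal. Each genotype is therefore a single sample here, and neither tests nor p-values are given. Values are shown for 3 cKO plates and 2 dKO plates, which show technical and animal differences together. Whether the floxed alleles had recombined in each cell was not checked, because a gene's TPM includes transcripts without the floxed exon.

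The bulge is the resting stem cell niche of the hair follicle. Its outer cells carry the surface protein CD34, rest through most of the hair cycle and are held there by BMP signals, while WNT signals drive their activation at the start of hair growth. The sialomucin Cd34, the R-spondin receptor Lgr5 and the transcription factors Tbx1, Nfatc1 and Lhx2 are classical bulge genes. NFIB and NFIX are known as chromatin factors of these stem cells.

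By plate, the Cd34-positive cells numbered 23, 13 and 16 in cKO and 23 and 16 in dKO. They made up 32.4% (95% exact binomial interval 21.8% to 44.5%), 27.7% (15.6% to 42.6%) and 24.6% (14.8% to 36.9%) of the Sca-1-negative cells of the cKO plates. On the dKO plates the shares were 24.7% (16.4% to 34.8%) and 26.2% (15.8% to 39.1%). The intervals of the genotypes overlapped, and they cover counting error only. Among 41 Sca-1-positive cells none reached the threshold, which allows a share of up to 7.32%, and the highest Cd34 value there was 1.84 TPM. The Sca-1-negative cells fell largely into separate ranges of Cd34. Below the threshold, 120 cells held some Cd34, the highest 9.96 TPM, and the remaining cells stood at 0. The lowest member stood at 11.3 TPM, and 9 members lay between 10 and 20 TPM, of which 8 were dKO cells. Cd34 (chromosome 1, 194938819 to 194961279, plus strand, GRCm38) had medians of 290.45, 262 and 136.8 TPM in the Cd34-positive cells of the cKO plates and of 73.98 and 179.9 TPM in those of the dKO plates.

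The other 4 markers went with Cd34 in most of these cells. At 10 TPM or more, Lgr5 was found in 57.1% of Cd34-positive cells and 5.28% of the other Sca-1-negative cells, Tbx1 in 84.6% and 14.6%, and Lhx2 in 56.04% and 7.32%. None of these 3 was found at that level in Sca-1-positive cells. Nfatc1 separated the cells less, with 95.6% and 69.5%, and 26.8% of Sca-1-positive cells. At least 3 of the 4 were found in 65 of 91 Cd34-positive cells (71.4%) and in 12 of 246 others (4.88%). The label thus held for most cells by these genes, although 26 of the 91 carried fewer than 3 of them. By genotype, 43 of 52 cKO cells (82.7%, 69.7% to 91.8%) and 22 of 39 dKO cells (56.4%, 39.6% to 72.2%) had at least 3. The intervals overlap slightly. They cover counting error among pooled cells only and do not speak to the genotypes, each a single sample. By plate these shares were 91.3%, 84.6% and 68.75% in cKO and 65.2% and 43.75% in dKO, which do not overlap but run close between cKO plate 3 and dKO plate 1.

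Cells with a trace of Cd34 lay nearer to cells without it than to the Cd34-positive cells, though not level with the former. S100a4 averaged 3.65 TPM where Cd34 was at 0, 12.1 TPM where it was above 0 and under 10, and 348 TPM in the Cd34-positive cells, as means of the 5 plates. Ly6d, a surface antigen of the upper follicle, averaged 256, 229.9 and 12.02 TPM over the same classes. Lgr5 averaged 6.16, 18.5 and 126.8 TPM, Tbx1 3.48, 10.6 and 95.3 TPM and Cxcl14 37.02, 83.3 and 784 TPM. On dKO plate 1, Tbx1 averaged 2.16 TPM in cells without Cd34 and 17.6 TPM in trace cells. At least 3 of the 4 markers were found in 2.38% (0.494% to 6.80%) of cells without Cd34 and in 7.5% (3.49% to 13.8%) of trace cells, intervals that overlap.

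**Figure D1:**
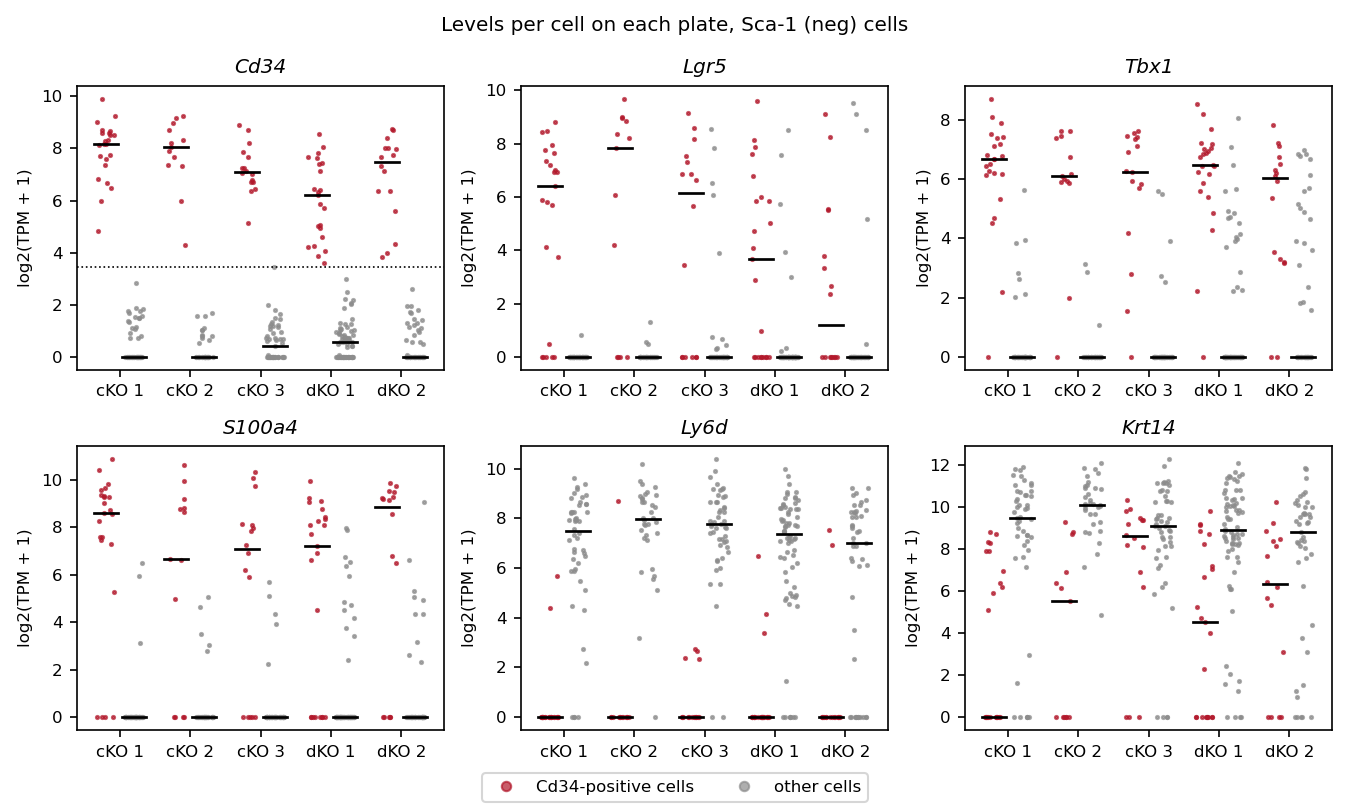
Level of 6 genes in each Sca-1 (neg) cell, as log2(TPM + 1), by plate. Red points are Cd34-positive cells, grey points the other cells, black lines medians, and the dotted line marks the 10 TPM that chose the members. High levels of S100a4 are mostly red and those of Ly6d mostly grey on all 5 plates. Lgr5 and Tbx1 part the cells less on dKO plate 2. There they averaged 61.7 and 66.3 TPM in Cd34-positive cells. In cells with Cd34 above 0 and under 10 TPM they averaged 54.2 and 29.2 TPM. Where Cd34 was at 0 they averaged 23.2 and 12.2 TPM. Krt14 is spread from 0 to high levels within the Cd34-positive cells.

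Libraries differed in ways that touch all ratios. Cd34-positive cells held medians of 4637, 4734 and 4610.5 genes on the cKO plates and of 4929 and 5348.5 genes on the dKO plates, against 4991 to 5350 in the other cells. The read total per cell is unknown, since TPM keeps no depth. ERCC spike-in RNA took 6.48%, 6.62% and 4.49% of TPM in Cd34-positive cells of the cKO plates and 4.18% and 4.01% in those of the dKO plates, against 3.25% to 4.36% in the other cells. The ERCC share was higher in Cd34-positive cells on all 5 plates. Rn18s-rs5, a row of ribosomal RNA, was the most abundant and averaged 57.9% of TPM. Among Cd34-positive cells it took 52.7% (cKO plate 1), 53.1% (cKO plate 2), 53.9% (cKO plate 3), 61.9% (dKO plate 1) and 55.7% (dKO plate 2). Both dKO values thus lay above every cKO value, while both dKO values of the ERCC share lay below every cKO value. The 2 shares thus pull in opposite directions on the TPM left for other genes. The rescaling given below removed Rn18s-rs5 with ERCC and other rows, and the part of Rn18s-rs5 in the ratios was not tested. The plates also differ in sex-linked RNA, although all are labelled male. Plates 1 and 2 of cKO and plate 1 of dKO held Xist RNA (the Xist plates), and plate 3 of cKO and plate 2 of dKO held RNA of Y-linked genes (the Y plates). Counts of the genotype comparison are therefore also given within each kind, as are the ratios of many genes. Where plates of the genotypes do not overlap, the direction within a kind is fixed, and only the size can differ. No cell among the 91 had 3 or more markers of fibroblasts, endothelial or mural cells, immune cells, melanocytes, Merkel cells or Schwann cells, which allows a share of up to 3.30% for each type.

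Against the other Sca-1-negative cells of the same plates, Cd34-positive cells carried a broad program of bulge genes with secreted factors foremost, and most measured genes of the upper follicle were lower in them. A ratio here is that of mean TPM plus 1, averaged over plates with equal weight. A gene passed when it stood at least 2-fold apart, in the same direction on every plate. Of 7059 genes that averaged at least 5 TPM, 332 (4.7%) were higher and 427 (6.05%) lower by this rule. For members of gene lists a ratio of 1.5 was used, which 511 genes (7.24%) passed as higher and 710 (10.1%) as lower. The median log2 ratio of all genes was 0.01.

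Secreted bulge factors stood out in size. Igfbp3, a binding protein for insulin-like growth factors, averaged 80.2 and 70.6 TPM in the Cd34-positive cells of cKO plates 1 and 3, 27.8 TPM in those of dKO plate 1 and 118.5 TPM in those of dKO plate 2, with cKO plate 2 just below that. The other cells averaged 0 to 2.43 TPM of it. The ranges were far apart on every plate, with a 42.4-fold difference and a spread of 1.46 (SD of log2 ratios, n = 5 plates). Dkk3, a member of the dickkopf family of secreted proteins, averaged 45.6 to 82.98 TPM on cKO plates, with 25.3 and 45.1 TPM for the dKO plates, against at most 3.27 TPM in the other cells. Of 19 measured genes for secreted bulge proteins 12 were higher, 2 lower and 5 neither, and the median log2 ratio was 1.52. The BMP antagonist Grem1 (29.1 against 1.92 TPM), the matricellular protein gene Ctgf (101.5 against 8.52 TPM) and the WNT inhibitor Sfrp1 were among the higher genes. Cxcl14, a chemokine gene of skin, averaged 784 TPM against 60.7 TPM in the other cells.

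Among 18 measured bulge transcription factors 10 were higher and 2 lower, with a median of 0.90. Tbx1 averaged 116.98, 93.4, 92.9, 107.2 and 66.3 TPM on the 5 plates, against 0.443 to 20.1 TPM in the other cells, which is 11.7-fold higher. Without dKO plate 2, where the other cells held most Tbx1, the log2 ratio of 3.54 became 4.36. The inhibitor of DNA binding Id2 averaged 29.98 against 1.96 TPM and the LIM homeobox gene Lhx2 31.99 against 3.07 TPM. The forkhead gene Foxp1 averaged 80.6 against 26.1 TPM. Fosl2, an AP-1 subunit, and Gata3 were the 2 lower members. Of 16 measured surface and structural bulge genes 9 were higher and 1 lower, with a median of 0.94.

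Lgr5 (chromosome 10, 115450311 to 115587780, minus strand) averaged 120.1, 248, 122.9, 80.9 and 61.7 TPM by plate. In the other cells it averaged 0.016, 0.0691, 15.8, 9.03 and 37.7 TPM. The plates thus differed in how far the receptor was restricted to Cd34-positive cells, and its log2 ratio of 3.24 became 2.55 without cKO plate 2 and 4.32 without dKO plate 2. The bulge keratin Krt15 averaged 967, 1325, 895, 374 and 547 TPM, against 118.3 to 519.6 TPM in the other cells of the 5 plates. Nephronectin (Npnt), an integrin ligand, averaged 53.9 against 13.3 TPM, and the WNT receptor gene Fzd2 18.8 against 1.62 TPM.

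Several of the genes with the largest ratios were on none of the bulge lists. S100a4, a small calcium-binding protein, averaged 478, 358, 291, 227 and 385 TPM against 2.34 to 17.6 TPM, or 39.5-fold higher. Its relative S100a6 averaged 719 against 138.7 TPM. Tgm5, a transglutaminase that cross-links proteins of the cornified envelope, averaged 97.5 against 4.03 TPM. Wfdc3, a protein with WAP domains, averaged 45.5 against 0.68 TPM and moved from a log2 ratio of 4.79 to 4.18 without cKO plate 2. The endocytic adaptor Dab2 averaged 25.6 against 0.169 TPM, γ-synuclein (Sncg) 47.2 against 1.17 TPM and Il31ra, a receptor chain for interleukin 31, 45.97 against 1.94 TPM. Its log2 ratio of 3.999 was 4.66 without dKO plate 2. Duoxa1, a maturation factor of dual oxidase, Sorbs2, Col6a1 and Adamtsl4 completed, with Igfbp3 and Dkk3, the 12 highest ratios among passing genes with at least 20 TPM and at least 25% of cells at 10 TPM.

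**Figure D2:**
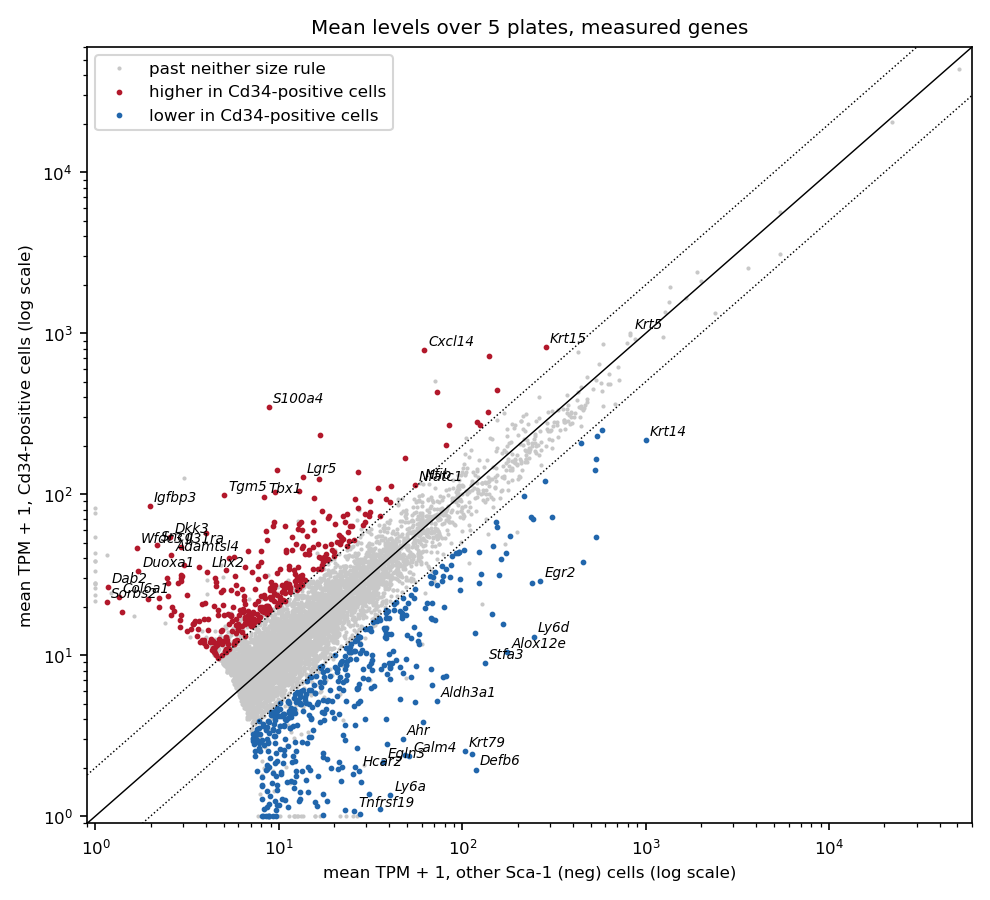
Mean TPM plus 1 of each measured gene over the 5 plates in Cd34-positive cells (vertical, log scale) and the other Sca-1 (neg) cells (horizontal, log scale). Red and blue genes passed the rule of at least 2-fold in the same direction on every plate, and dotted lines mark 2-fold. S100a4 at 348 against 7.84 TPM and Ly6d at 12.02 against 244 TPM lie far from the diagonal, and Krt5 lies close to it.

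Genes of the upper follicle were mostly lower. Of 14 measured members of that list none was higher and 12 were lower, with a median log2 ratio of -2.84. The list was not absent from the Cd34-positive cells, since its sum ran from 165.15 to 343 TPM over the plates, against 755 to 1254 TPM in the other cells. At least 3 of its 19 genes stood at 10 TPM or more in 37 of 91 Cd34-positive cells (40.7%) and in 234 of 246 others (95.1%). The surface receptor Cd44 (104.8 against 176.1 TPM) and the keratin Krt80 (66.4 against 86.5 TPM) held much of that sum, and Lgr6, a relative of Lgr5, averaged 23.8 against 10.9 TPM. Krt80 and Lgr6 did not pass. The β-defensin Defb6 averaged 0, 0, 0.627, 1.95 and 2.15 TPM in Cd34-positive cells and 41.4 to 225 TPM in the other cells, 60.7-fold lower. Krt79, a keratin of the infundibulum, averaged 0, 0, 0, 0.138 and 7.56 TPM against 35.3 to 227 TPM. Its log2 ratio of -5.34 became -4.62 without cKO plate 3, or -6.56 without dKO plate 2. Ly6a, which encodes Sca-1, was found at 10 TPM or more in 1.10% of Cd34-positive cells and in 41.1% of the other cells of the Sca-1-negative gate, and in 85.4% of Sca-1-positive cells. RNA of the sorting marker was therefore common in the negative gate, yet close to absent where Cd34 was present. Ly6d averaged 1.204 to 31.8 TPM against 180.1 to 309.8 TPM, a log2 ratio of -4.23 that was -4.82 without cKO plate 2.

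Differentiation genes of the epidermis split. Krt1 and Krt10, keratins of the layers above the basal one, averaged 1.44 against 112.1 TPM and 1.39 against 47.7 TPM. The calmodulin-like gene Calm4 averaged 1.36 against 50.3 TPM, and its log2 ratio of -4.44 was -5.27 without cKO plate 1. Tgm5 and Dmkn, in the same list, were higher, so that 2 of 13 measured members were higher and 5 lower. Tnfrsf19, a TNF receptor family member and WNT target placed on the hair germ list, averaged 0.0698 against 24.8 TPM. The hair germ and activation list had 1 higher and 4 lower members of 9, a median of -0.71 that turned to 0.21 after rescaling, with 5 higher and 3 lower of 16 measured.

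The remaining genes with the lowest ratios included Ahr, the aryl hydrocarbon receptor, at 2.01 against 46.3 TPM. Egln3, an oxygen-sensing prolyl hydroxylase, averaged 1.16 against 36.05 TPM. Hcar2, a receptor for hydroxycarboxylic acids, averaged 0.918 against 26.2 TPM, with a log2 ratio of -3.83 that was -4.89 without dKO plate 2. The dKO plates weighed on others of these genes. For Alox12e, a lipoxygenase, the log2 ratio of -4.07 was -5.99 without dKO plate 2, and for the aldehyde dehydrogenase Aldh3a1 -3.81 became -4.41. Stfa3, of the stefin A family, whose near-identical copies share reads, went from -3.90 to -6.53 without dKO plate 2 and to -2.91 without dKO plate 1.

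The basal keratin pair parted in these cells. Krt5 did not pass, whereas Krt14 averaged 100.5, 136.5, 451, 158.2 and 230.3 TPM against 701 to 1409 TPM in the other cells, 4.61-fold lower. Krt14 was lower on all 5 plates, least on cKO plate 3. Of 21 measured basal keratinocyte genes 3 were higher, among them the laminin chain Lama3, 3 were lower and 15 neither. Integrin α6, on which the cells were sorted, was found at 10 TPM or more in 65.9% of Cd34-positive and 84.96% of the other cells.

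Matrix genes leaned upward, with 5 of 13 measured members higher and none lower. Sparc averaged 53.2 against 10.8 TPM and the metalloproteinase inhibitor Timp2 58.5 against 12.4 TPM. In the BMP and quiescence list 2 of 13 were higher, the BMP targets Id3 (62.5 against 23.5 TPM) and Id1 (26.4 against 12.4 TPM), and 1 was lower, the cell cycle inhibitor Cdkn1a (28.1 against 76.3 TPM). In the WNT list 4 of 13 were higher and 1 lower. Lgr4, a second R-spondin receptor, averaged 30.9 against 11.2 TPM, whereas the receptor Fzd10 averaged 0.268 against 7.11 TPM. Of 6 measured inner bulge genes 3 were higher and 3 lower, with a median of 0.10. After rescaling 4 of 7 were higher and 1 lower, with a median of 0.91. Krt16 averaged 0.406 against 13.4 TPM and the calmodulin-like Calml3 267 against 83.99 TPM. Of 9 measured cell cycle genes none passed, but without dKO plate 2, 7 of 9 were lower, with a median of -1.12. At 2-fold, 8.14% of all measured genes were lower without that plate, and the share at 1.5-fold is not given here. Cells with at least 3 of the 20 genes of the whole list made up 13.2% of Cd34-positive and 23.6% of the other cells. Among sebaceous gland genes 2 of 7 were lower, the fatty acyl-CoA synthetase Acsbg1 (8.34 against 42.6 TPM) and the apolipoprotein Apoc1 (42.9 against 121.6 TPM). The log2 ratio of Acsbg1 was -2.22, and -4.97 without cKO plate 2.

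Immediate early genes, the first to be transcribed after stimulation or cell dissociation, were lower as a list. Of 19 measured members 11 were lower and none higher, with a median of -1.78. Egr2, a zinc finger factor, averaged 6.97, 20.9, 0, 75.1 and 35.6 TPM against 140 to 456 TPM. The mRNA decay factor Zfp36 averaged 30.5 against 157.3 TPM, and Myc 15.6 against 69.5 TPM. Without dKO plate 1 the log2 ratio of Egr2 went from -3.21 to -4.05 and that of Zfp36 from -2.33 to -3.11. The summed level of the list ran from 130 to 2039 TPM over the plates in Cd34-positive cells and from 926 to 5275 TPM in the other cells, and its part in other results was not tested.

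**Figure D3:**
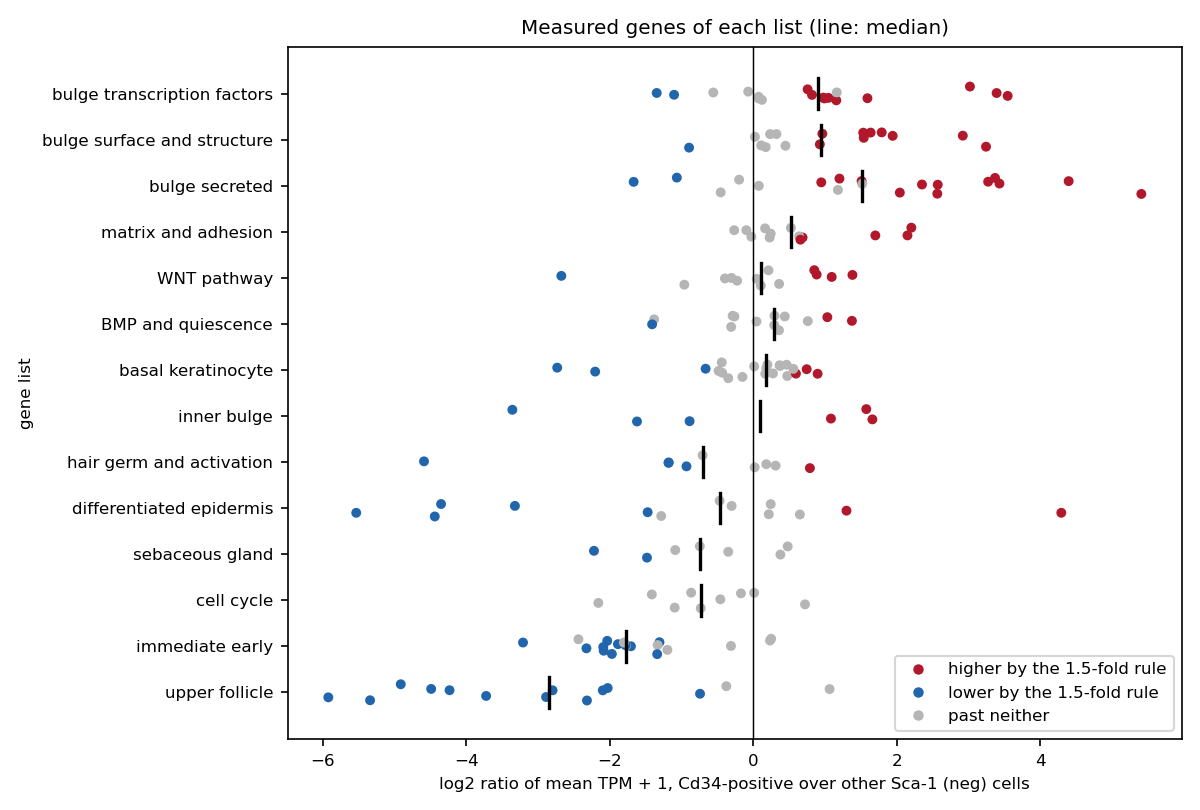
Log2 ratio of each measured gene in 14 lists, Cd34-positive over the other Sca-1 (neg) cells. Red and blue points passed the 1.5-fold rule, grey points did not, and black lines are medians. The secreted bulge list has its median at 1.52 and the upper follicle list at -2.84.

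In the NFI family Nfib alone passed, by the list rule. It averaged 129.3, 114.2, 112.3, 90.4 and 133.1 TPM in Cd34-positive cells and 56.9, 56.9, 52.4, 47.9 and 75.3 TPM in the other cells. All plates agreed closely, with a 1.99-fold ratio and an SD of 0.14 over the 5 log2 ratios. Nfix averaged 41.6 against 39.5 TPM, Nfic 45.03 against 38.6 TPM and Nfia 54.9 against 73.9 TPM. The targeted gene Nfib (chromosome 4, 82290173 to 82705750, minus strand) was thus read at similar levels in dKO and cKO cells that carry Cd34, at 111.7 and 118.6 TPM, and Nfix at 33.7 and 46.9 TPM. These values do not check the genotype labels, for the reason given above.

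Markers of other cell types read high in single genes only. Col1a1, a collagen chain counted among the fibroblast markers, averaged 28.97 against 1.44 TPM. It was the one gene of that list to average 5 TPM or more, and the sum of the list ran from 9.44 to 79.95 TPM over the plates, against 0.802 to 6.21 TPM in the other cells. Of the 10 genes 3 were at 0 in all Cd34-positive cells and 7 averaged under 1 TPM, among them Pdgfra, Lum and Col3a1. Mitf (57.9 against 7.51 TPM) and Gpnmb (27.4 against 3.52 TPM), both on the melanocyte list, were higher, while the pigment genes Dct, Mlana, Pmel, Tyrp1 and Tyr averaged under 1 TPM. The sum of the 8 melanocyte genes ran from 56.4 to 112.4 TPM, against 5.17 to 23.5 TPM in the other cells. Cspg4, on the list for endothelial and mural cells, averaged 33.2 against 10.4 TPM, and the other 9 genes of that list averaged under 1 TPM, Pecam1 and Cdh5 among them. All 12 immune genes averaged under 1 TPM, and 11 were at 0 in every Cd34-positive cell.

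The Cd34-positive cells were not uniform. Among genes with a mean of 100 TPM or more in them, the SD of log2(TPM + 1) between cells of a plate had a median of 1.495. S100a4 varied most, with an SD of 4.01, and stood under 10 TPM in 26 of the 91 cells. Krt14 followed with 3.80 and Fos with 3.49. Lgr5 varied nearly as much, at 3.46, and 39 cells stood under 10 TPM. The basal keratin Krt5 (0.57) and the collagen Col17a1 (0.66) were among the most even.

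Cells without S100a4 or Lgr5 overlapped in part. S100a4 was found at 10 TPM or more in 86.5% of the 52 cells with Lgr5 and in 51.3% of the 39 without. Igfbp3 was found in 67.7% of cells with S100a4 and 30.8% of those without. Tbx1 and Cxcl14 went together within plates (r = 0.62 over 91 cells), while Cxcl14 and the upper follicle gene Ly6d went opposite ways (r = -0.73). Only 7 cells held Ly6d, and all 3 cells without Cxcl14 were among them. The immediate early genes Fos and Dusp1 also went together (r = 0.72). These correlations describe cells that share plates, and read depth per cell is unknown.

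The level of Cd34 itself went with some bulge genes and not with others. In the 16 cells with 10 to under 50 TPM of Cd34, 31.25% held Lgr5, 31.25% S100a4 and 25% Ly6d. In the 42 cells with 200 TPM or more these shares were 66.7%, 90.5% and 2.38%. Krt15 averaged 425, 693 and 988 TPM over cells with 10 to under 50, 50 to under 200 and 200 TPM or more, and Fos 405, 233 and 82.9 TPM. Nfatc1 averaged 120.5, 109.5 and 114.5 TPM and Lhx2 47.6, 22.35 and 33.3 TPM over these classes, neither in the order of Cd34. Median genes detected were 5132 in the lowest class and 4625 in the highest. Of its 16 cells 13 were dKO cells, against 12 of 42 in the highest class, so genotype and Cd34 level are mixed in these shares. The rule admits cells by this gene, and the low class is where the choice of 10 TPM decides.

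The comparison of dKO with cKO within Cd34-positive cells asks what these cells carried where both Nfib alleles were floxed rather than 1. Tgm5, Cyp4b1, Krt15 and Lgr5 stood lower in dKO, and Mest, Col1a1, Tnc and Bgn higher. A gene passed with a 2-fold ratio and no overlap between the 3 cKO plates and the 2 dKO plates. Of 7159 genes that averaged at least 5 TPM, 2.42% passed as higher in dKO and 3.69% (264 genes) as lower. At 1.5-fold, 311 (4.34%) were higher and 387 (5.41%) lower. All genes together had a median log2 ratio of -0.13, which moved to 0.003 when ERCC and the 5 most abundant rows were removed and TPM rescaled. After rescaling 12200 genes averaged at least 5 TPM, and 623 of them (5.11%) were higher and 351 (2.88%) lower at 2-fold.

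These counts rest on 13 to 23 cells a plate and on each plate. Without cKO plate 1 they were 386 higher and 409 lower, without cKO plate 2 347 and 311, and without cKO plate 3 306 and 474. Without dKO plate 1 they were 588 and 598, and without dKO plate 2 242 and 751. Within the Xist plates 337 and 1104 genes passed, and within the Y plates, with 1 plate a genotype, 1400 and 806. These are counts at 2-fold. List counts under the same settings use 1.5-fold, for which no share of all genes is given here. Fewer plates make the rule of no overlap easier to pass for any gene. A list count that rises without a plate is therefore not read as a trait of that list.

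Tgm5 (chromosome 2, 121046111 to 121085841, minus strand) set the genotypes apart most evenly. Its mean was 161.7, 138.2 and 139.2 TPM for the cKO plates, as against 24.5 and 23.8 TPM for dKO. It was found at 10 TPM or more in 50 of 52 cKO cells (96.2%, 86.8% to 99.5%) and 14 of 39 dKO cells (35.9%, 21.2% to 52.8%). The intervals cover counting error among pooled cells only. The plates did not overlap, with a log2 ratio of -2.55 that was -2.57 within the Xist plates, against -2.50 within the Y plates. In the other Sca-1-negative cells Tgm5 averaged 0 to 7.03 TPM on all plates, and the log2 ratio there was 0.54. Among cells with at least 200 TPM of Cd34, 30 of 30 cKO cells and 3 of 12 dKO cells held it, with means over cells of 166.3 and 20.3 TPM, so the difference was as large where Cd34 was high.

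Cyp4b1, a cytochrome P450 of fatty acid metabolism (chromosome 4, 115624725 to 115647723, minus strand), stood at 38.8, 52.6 and 41.2 TPM across cKO plates, then at 1.63 and 3.73 TPM across dKO plates. It was found in 61.5% of cKO and 7.69% of dKO cells, and the log2 ratio was -3.62, with -4.15 and -3.16 within the 2 kinds of plates. It also passed as lower in the other cells, at -2.03. Wfdc3 stood at 90.1, 96.9 and 18.2 TPM across cKO plates, then at 11.4 and 10.9 TPM across dKO plates. Its plates were narrowly apart, and the log2 ratio of -2.51 was -2.93 within the Xist plates, against -0.69 within the Y plates. The fatty acyl-CoA synthetase Acsbg1, which was low in Cd34-positive cells, averaged 0.229, 41.2, 0, 0 and 0.300 TPM there by plate. Only 2 of 52 cKO cells held it, both on cKO plate 2, whereas it averaged 59.3 to 75.2 TPM in the other cKO cells.

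The stretches of 250 bases before the RefSeq starts of Tgm5 and Cyp4b1 (GRCm38.p6) are shown because these genes differed most evenly, or most, among those lower in dKO. They run 5′ to 3′ on the gene's strand, and capitals mark the NFI half-site TTGGCA on either strand. The window of Tgm5 is chr2:121085842-121086091 and that of Cyp4b1 chr4:115647722-115647971, both on the minus strand.
Tgm5: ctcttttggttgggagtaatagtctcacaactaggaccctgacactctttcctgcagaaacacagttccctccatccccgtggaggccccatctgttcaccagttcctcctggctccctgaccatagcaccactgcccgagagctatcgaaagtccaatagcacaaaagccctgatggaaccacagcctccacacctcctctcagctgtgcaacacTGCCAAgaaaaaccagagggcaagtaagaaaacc
Cyp4b1: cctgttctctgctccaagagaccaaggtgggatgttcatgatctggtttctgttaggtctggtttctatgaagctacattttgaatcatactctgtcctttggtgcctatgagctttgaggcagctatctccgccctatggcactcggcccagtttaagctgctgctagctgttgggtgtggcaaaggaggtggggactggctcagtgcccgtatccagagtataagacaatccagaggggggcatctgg
The half-site occurred once for Tgm5, read on the opposite strand, and not for Cyp4b1. Of 32851 such windows in the mouse, 12.3% held it. Of the 12 named genes with the lowest ratios in dKO, 10 had a window, and Tgm5 was the 1 gene with the half-site. Of the 12 with the highest ratios, 11 had a window, and 4 held it in at least 1 window (Egr2, Lzic, Stom and Tnc). A match describes these letters and no binding.

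Further genes with the lowest ratios had diverse functions. Bok, a BCL2 family member, stood at 50.8, 83.5 and 51.2 TPM across cKO plates, then at 14.1 and 7.43 TPM across dKO plates, with a log2 ratio of -2.41, against 0.07 in the other cells. The ecto-nucleotidase Nt5e averaged 30.9 TPM over cKO plates against 3.90 TPM over dKO plates, and its log2 ratio of -2.70 was -3.53 without dKO plate 2, and -3.82 and -1.31 within the Xist and the Y plates. The adenylate kinase Ak4 averaged 32.4 and 3.63 TPM and the haem synthesis enzyme Urod 33.5 and 4.74 TPM. The chloride channel Ano1 stood at 3.48, 43.01 and 31.1 TPM across cKO plates, then at 2.49 and 0.0375 TPM across dKO plates. It was narrowly apart on cKO plate 1, and its log2 ratio of -3.57 was -4.69 without dKO plate 1 and -2.94 without dKO plate 2, and -2.80 and -4.95 within the kinds. Tmc6 went from a log2 ratio of -3.15 to -1.90 without cKO plate 2, and to -3.98 and -1.78 within the kinds. Whether ratios in the 2 sets of cells differ was not tested.

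Of 18 measured surface and structural bulge genes 3 were lower in dKO and none higher, with a median of -0.54. By the same 1.5-fold rule 5.41% of all measured genes were lower and 4.34% higher, with a median of -0.13. In this list, 11 of 19 were lower and 1 higher without dKO plate 2, and 5 of 18 and 1 without cKO plate 1. Within the Xist plates 14 of 19 were lower, and within the Y plates 4 of 16, with 5 higher. Of all measured genes, at 2-fold, 15.7% were lower within the Xist plates and 10.7% without dKO plate 2. Without cKO plate 1, 5.74% of them were lower and 5.41% higher. Within the Y plates 11.5% were lower and 19.9% higher. The shares at 1.5-fold under these settings are not given here, so the list counts are not set against them. Krt15 averaged 1062 TPM over cKO plates against 461 TPM over dKO plates. Its log2 ratio was -1.20 over all plates, -1.61 within the Xist plates, against -0.71 within the Y plates, and it was lower in the other cells too (-1.26). Lgr5 averaged 163.8 and 71.3 TPM and was found in 35 of 52 cKO cells and 17 of 39 dKO cells. Its log2 ratio of -1.19 was -1.18 and -0.98 within the kinds. In the other cells it was not lower, with 0.016, 0.0691 and 15.8 TPM for cKO plates, with 9.03 and 37.7 TPM for dKO plates, where cKO plate 3 overlaps the dKO plates.

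Of 19 measured bulge transcription factors 2 were lower and none higher. The homeodomain protein Hopx stood at 35.1, 18.8 and 20.1 TPM across cKO plates, then at 10.6 and 1.37 TPM across dKO plates, and its log2 ratio of -1.88 ran from -3.44 without dKO plate 1 to -1.15 without dKO plate 2, with -1.27 and -3.16 within the Xist and the Y plates. Sox9 averaged 73.8 and 47.1 TPM. The list count varied with the plate left out. It was 6 of 19 lower without dKO plate 1 and 5 without dKO plate 2. Without cKO plate 3, 4 were lower, and without cKO plate 2, 1 of 18. The share of all measured genes lower at 2-fold rose too, to 8.2% without dKO plate 1 and 10.7% without dKO plate 2. That share was 6.61% without cKO plate 3 and 4.45% without cKO plate 2. After rescaling, none of 20 was lower and 1 was higher. Tbx1 did not pass in Cd34-positive cells, at 101.1 and 86.7 TPM. In the other cells it averaged 0.443 to 2.37 TPM for cKO plates, with 11.4 and 20.1 TPM for dKO plates, and 4.58% and 26.1% of those cells held it. Nfatc1 (122.98 and 97.5 TPM) and Lhx2 (36.3 and 25.5 TPM) did not pass either. Cd34 chose the cells and was left out of the rule, so its values only describe the chosen cells. It averaged 259 and 142.8 TPM, with a log2 ratio of -1.53 within the Xist plates, against 0.04 within the Y plates.

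Secreted bulge factors passed in both directions, with 3 of 18 higher and 4 lower. The counts changed with the dKO plate left out, with 7 of 20 higher and 3 lower without dKO plate 1. Without dKO plate 2, 2 of 19 were higher and 8 lower. All measured genes at 2-fold gave 8.06% higher and 8.2% lower without dKO plate 1, and 3.45% and 10.7% without dKO plate 2. The BMP antagonist Nbl1 stood at 81.03, 120.2 and 62.55 TPM across cKO plates, then at 17.6 and 32.04 TPM across dKO plates, with log2 ratios of -2.45 and -0.94 within the Xist and the Y plates. Grem1, another BMP antagonist, averaged 40.7 and 11.6 TPM. Smad9, a transducer of BMP signals, was low but apart, with 8.40 and 1.19 TPM, and its log2 ratio of -2.11 was -0.36 within the Y plates. In the other direction the WNT inhibitor Wif1 read 8.03, 0 and 17.6 TPM per cKO plate against 20.95 and 41.8 TPM per dKO plate, a log2 ratio of 1.76 that was 2.69 without cKO plate 3. Axin2, a feedback target of WNT signals, averaged 10.6 and 25.9 TPM, and its log2 ratio of 1.22 was 0.60 without dKO plate 1.

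Mest, an imprinted gene for a hydrolase-like protein (chromosome 6, 30723547 to 30748465, plus strand), reached 10 TPM in Cd34-positive cells of dKO and in none of cKO. It stood at 0, 0 and 0.544 TPM across cKO plates, then at 29.02 and 173.3 TPM across dKO plates. At 10 TPM or more it was found in 7 of 23 and 7 of 16 dKO cells, in 0 of 52 cKO cells, which allows a share of up to 5.77%, and in 1.74% of the other dKO cells. The ratio depends on the pseudocount, with log2 values of 6.43 at 1 TPM, 8.49 at 0.1 TPM and 3.45 at 10 TPM. It was 4.67 without dKO plate 2 and 7.20 without dKO plate 1, and 4.91 within the Xist plates, against 6.82 within the Y plates.

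Some matrix genes were higher in dKO and others lower. Tenascin C (Tnc) stood at 3.61, 15.7 and 10.7 TPM across cKO plates, then at 54.5 and 82.2 TPM across dKO plates, and was found in 11 of 52 and 23 of 39 cells, with log2 ratios of 2.38 and 2.83 within the Xist and the Y plates. The proteoglycan Bgn read 10.5, 24.5 and 55.2 TPM per cKO plate against 108.6 and 122.7 TPM per dKO plate, with a log2 ratio of 1.91 that was 2.66 without cKO plate 3 and 2.57 and 1.14 within the kinds. Col1a1 read 7.38, 2.49 and 13.99 TPM per cKO plate against 43.5 and 77.5 TPM per dKO plate, and was found in 8 of 52 and 26 of 39 cells. Its log2 ratio of 2.78 was 2.91 and 2.39 within the kinds, and 3.37 without cKO plate 3. In the dKO cells, 9 of the 10 fibroblast markers averaged under 1 TPM and 6 were at 0. Col1a2, the partner chain of Col1a1 in type I collagen, went the other way, at 10.97, 6.95 and 2.04 TPM on the cKO plates and listed at 0 on both dKO plates, with a mean too low to be among the measured genes. The part of the marker list in these values was not tested. In the other cells the log2 ratios were 1.88 for Tnc, 1.40 for Bgn and 1.56 for Col1a1, and in dKO Bgn and Col1a1 averaged 31.05 and 3.05 TPM there. Gpnmb averaged 11.3 and 51.6 TPM, while 5 of the 8 melanocyte markers averaged under 1 TPM in dKO. Tnc and Col1a1 stand on other lists, as does the collagen Col18a1, which was lower by the list rule (54.1 TPM in cKO, 32.4 TPM in dKO). Over the whole matrix list 2 of 15 measured genes were higher and 1 lower, the collagen Col4a2 (7.97 TPM in cKO, 2.94 TPM in dKO). Leaving out dKO plate 1 gave 5 higher and 1 lower, dKO plate 2 gave 2 higher and 3 lower, and cKO plate 1 gave 2 of each among 14. In the same order, the 2-fold shares of all measured genes were 8.06% higher and 8.2% lower, 3.45% and 10.7%, and 5.41% and 5.74%.

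Of the immediate early genes Egr2 and Jun passed as higher in dKO. In Cd34-positive cells Egr2 averaged 9.28 TPM over cKO plates against 55.3 TPM over dKO plates and Jun, an AP-1 subunit, 25.6 and 81.9 TPM, with no overlap between plates. Among the other cells the log2 ratios were -0.88 and -1.13 and neither passed. Egr2 was found in 2 of 52 cKO and 14 of 39 dKO cells. Its log2 ratio of 2.45 became 3.65 without cKO plate 2, or 1.83 without dKO plate 1, with 2.35 and 5.19 within the Xist and the Y plates. Among cells with at least 200 TPM of Cd34 it averaged 5.34 TPM over 30 cKO cells against 2.62 TPM over 12 dKO cells. With the threshold at 1 TPM of Cd34 the ratios turned to -0.52 for Egr2 and -0.29 for Jun. The list had 2 of 17 higher and a median of 1.01. Without dKO plate 1 the median was -0.06, with 3 higher, and without dKO plate 2 it was 1.89, with 13 higher and 1 lower. Without cKO plate 1, 5 were higher. Of all measured genes, at 2-fold, 3.45% were higher and 10.7% lower without dKO plate 2. The higher share was 8.06% without dKO plate 1 and 5.41% without cKO plate 1. The difference between the sets of cells was not tested.

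**Figure D4:**
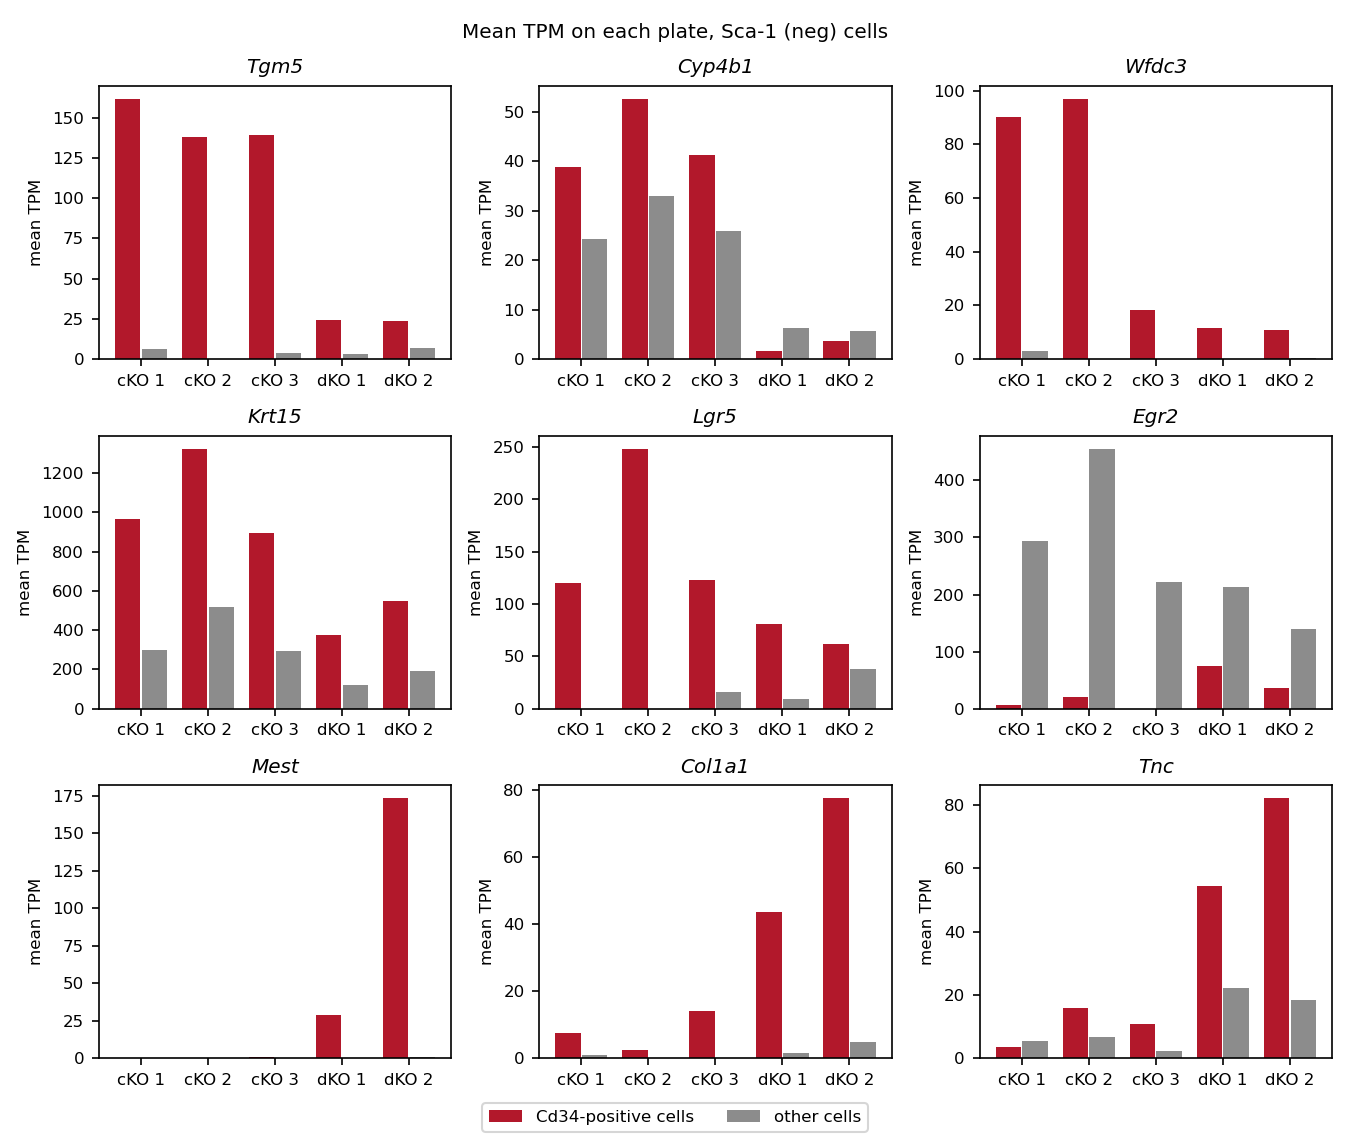
Mean TPM of 9 genes on each plate in Cd34-positive cells (red bars) and the other Sca-1 (neg) cells (grey bars), with all axes from 0. Tgm5 stands at 138.2 to 161.7 TPM in Cd34-positive cells of the cKO plates and at 24.5 and 23.8 TPM in those of the dKO plates, and Mest has visible bars on the dKO plates alone.

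Other genes with the highest ratios were spread over functions. Krtdap, a gene of differentiating keratinocytes, read 14.5, 44.4 and 5.03 TPM per cKO plate against 127.3 and 87.1 TPM per dKO plate, and its log2 ratio of 2.28 was 3.33 without cKO plate 2, and 2.07 and 3.87 within the Xist and the Y plates. The membrane protein stomatin (Stom) averaged 7.03 and 34.9 TPM, with 2.16 becoming 2.75 without cKO plate 1, and 1.24 and 3.66 within the kinds. Timp3, a metalloproteinase inhibitor, averaged 8.94 and 36.4 TPM, with 1.91 becoming 1.29 without dKO plate 2, and 1.25 and 2.44 within the kinds. Lzic, Lrrc40, Fah and the condensin subunit Ncapd2 stood between 2.03 and 2.77. Among them Lzic became 3.64 without cKO plate 2, Lrrc40 3.36 without cKO plate 3 and 1.81 without dKO plate 2, Fah 1.27 without dKO plate 2, and Ncapd2 2.88 without cKO plate 1 and 1.33 without dKO plate 2. The ratio of Ncapd2 was -0.035 with the threshold at 1 TPM of Cd34. Within the kinds Lzic stood at 2.04 and 3.71 and Ncapd2 at 1.15 and 2.93. Pcna, the replication clamp, averaged 11.3 and 26.001 TPM. Cells with at least 3 cell cycle genes made up 9.62% (3.20% to 21.03%) of cKO and 17.9% (7.54% to 33.5%) of dKO cells. These intervals overlap, and they cover counting error among pooled cells only.

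Within the NFI family Nfia, which was not floxed, stood at 40.3, 56.5 and 28.7 TPM across cKO plates, then at 71.3 and 77.5 TPM across dKO plates. The plates were apart, at 1.76-fold, by the list rule, and the log2 ratio was 0.55 within the Xist plates, under that rule, and 1.40 within the Y plates. Nfia in the other cells stood at similar levels in both genotypes, with a log2 ratio of 0.10. Of 20 measured basal keratinocyte genes none passed, with Krt5 at 1068 and 885 TPM, but 3 were lower without dKO plate 2, and 3 lower and 1 higher without cKO plate 3. One was lower without cKO plate 1 or dKO plate 1. Of 6 measured upper follicle genes none passed either, but 3 were higher and 1 lower without dKO plate 1, and 12 of the 19 in the list averaged under 1 TPM in cKO and 9 in dKO.

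**Figure D5:**
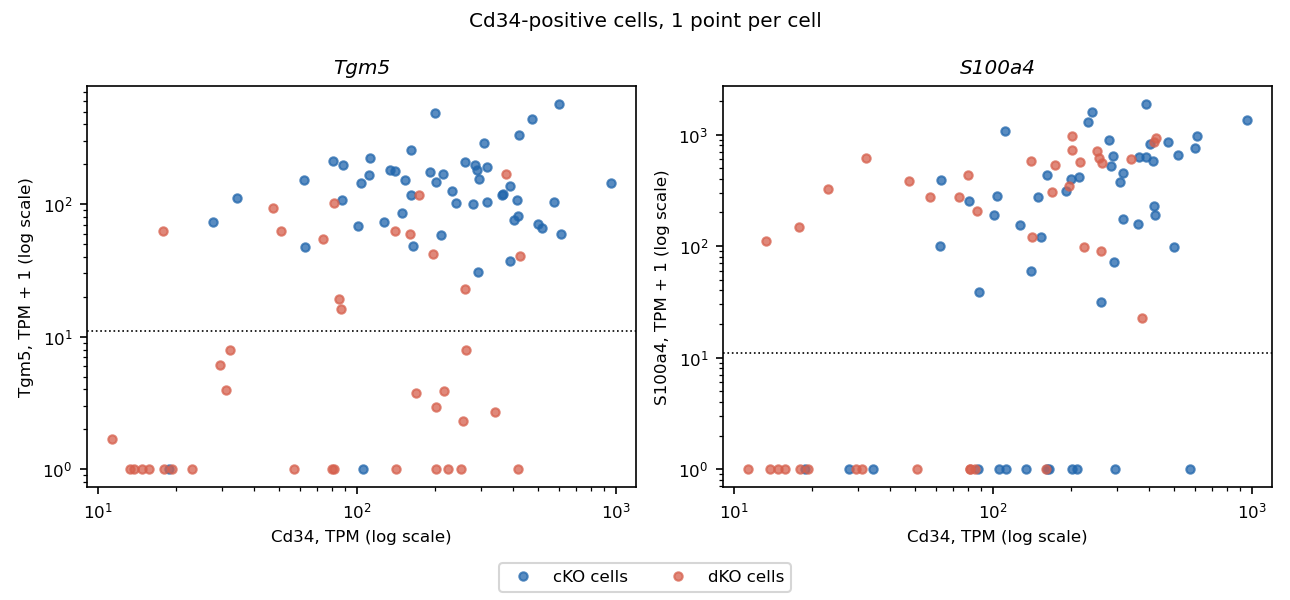
Tgm5 (left) and S100a4 (right), as TPM plus 1, against Cd34 TPM in each of the 91 Cd34-positive cells, on log scales. Blue points are cKO and red points dKO cells, and the dotted line marks 10 TPM. Tgm5 lies above the line in 50 of 52 cKO and 14 of 39 dKO cells at all levels of Cd34, while S100a4 does not part the genotypes and averages 555 and 562 TPM over cKO and dKO cells where Cd34 is 200 TPM or more.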

How the data were processed

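Single cells were sorted into wells, and their cDNA (Smart-seq2, Nextera XT, no molecular identifiers, no strand) was sequenced in pairs on a NextSeq 500, per the labels' protocols. The authors deposited 1 table of TPM values. The submitters' processing notes name Bowtie2 2.2.9 and RSEM 1.2.30 with mm10 and GRCm38; which gene annotation was used is not given here. TPM keeps no depth, so small differences in low genes cannot be judged by counts. ERCC rows (92 of 46609) stayed in the deposited scale and out of the genes compared.

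Each well is 1 cell, no libraries share barcodes, and no doublet caller was run. Cells with fewer than 1000 genes at 1 TPM were left out. Mean TPM per plate was averaged over plates with equal weight, and ratios used a pseudocount of 1 TPM. Because the labels name no animal, no test was made. Members and lists (365 genes in 23 lists) were chosen with earlier results of these data known. Genes named in the text are the markers, the NFI family, the 12 highest and 12 lowest passing ratios with at least 20 TPM and 25% of cells at 10 TPM or more in the higher group, and up to 4 members of each list. Fos, Dusp1, Cxcl14, S100a4 and others shown for the spread between cells were chosen after their values were seen. The scripts ran in Python 3.11.15 with numpy 2.4.6, pandas 2.3.3, scipy 1.17.1 and matplotlib 3.10.9. Their size rules were tested on these cells, with members redrawn within plates and some genes multiplied by known factors. That test did not cover genes at low levels. Coordinates are from GENCODE M21. Alternatives included the pseudocount, gene and cell filters, the size of the ratio, the Cd34 threshold, rescaling and leaving out each plate.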

Additional observations from a re-analysis of the deposited data

Results flagged for a closer look

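Gnb1l, a gene for a WD-repeat protein, had opposite genotype ratios in Cd34-positive and other Sca-1-negative cells. The log2 ratio of dKO over cKO was -1.44 in Cd34-positive cells and 1.51 in the other cells, with no overlap between plates in either. It was the 1 gene with opposite ratios past the rule among 5996 genes measured in both sets, of which 317 passed in Cd34-positive cells, and 12 were higher and 7 lower in both sets. This difference was not tested.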

How the results depend on the processing

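Shares of measured genes past the 2-fold rule are given as higher and lower in Cd34-positive cells against the other cells, then as higher and lower in dKO against cKO. As reported they were 4.7% and 6.05%, then 2.42% and 3.69%. A pseudocount of 10 TPM gave 2.0% and 2.34%, then 0.587% and 1.19%. No filter on genes gave 1.39% and 1.64% of 46516 rows, then 1.43% and 1.09%. A minimum of 20 TPM gave 4.55% and 8.02% of 2045 genes, then 1.51% and 3.35% of 2122. A ratio of 1.5 gave 7.24% and 10.1%, then 4.34% higher, and a ratio of 3 gave 1.98% and 3.24%, then 0.922% and 1.54%. With Cd34 of at least 1 TPM 1.76% were lower than in the other cells and 1.34% higher in dKO, and the Cd34-positive share was 46.2% in cKO and 45.6% in dKO as means of plates, against 28.2% and 25.5% as reported. Under that threshold the genotype ratio reversed for Egr2 (-0.52), Jun (-0.29) and Ncapd2 (-0.035). Rescaling gave 5.26% and 5.67% of 12268 genes, then 5.11% higher of 12200. A difference of mean log2 values in place of the ratio left 1.77% lower in dKO. Leaving out 1 plate gave 3.45% to 8.06% higher and 4.45% to 10.7% lower in dKO, and 4.66% to 5.49% and 6.2% to 8.14% against the other cells. The Xist plates gave 4.78% and 15.7%, and the Y plates 19.9% and 11.5%. Fewer plates make the rule of no overlap easier to pass, and for the other settings the cause was not tested.

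For 83 genes named against the other cells, 1289 of 1411 log2 ratios under alternatives moved by less than the spread between plates and the rest moved more. For 66 genes named between genotypes, 1014 of 1188 moved less, and the rest moved more or reversed. A ratio counts as reversed where it had passed the 2-fold rule and then changed sign, which the 3 values above did between genotypes and 0 did against the other cells. Ratios that had not passed also changed sign, such as Krt14 from -0.24 to 0.71 without cKO plate 3 and Apoc1 from 0.03 to -1.24 without dKO plate 2 between genotypes, and Mcm2 from 0.72 to -0.32 without dKO plate 2 against the other cells. No paired analysis was possible because the results come from no test. With no read totals, a gene at 0 TPM cannot be given a floor in reads.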
